A study of Rattus norvegicus with 4 samples.

Results

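CXC chemokines are small secreted or membrane-bound proteins that direct the movement of leukocytes. The 9 genes described here, Cxcl1, Cxcl2, Cxcl3, Cxcl9, Cxcl10, Cxcl11, Cxcl12, Cxcl13 and Cxcl16, were chosen by gene name. They are 9 of 22136 genes named on the array and had 11 of its 30367 probes. For 7 of the 9 a probe passed the filter, which asked that in 1 group or the other both arrays read well above background.

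Expression was measured on 4 one-colour Agilent arrays, 2 for rats given liposomes, which are small lipid vesicles, and 2 for rats given saline. All rats were WKAH males 8 to 12 weeks old, and the spleen was taken 24 h after the injection. Spleen cells were depleted of cells that carry MHC class II (antibody OX-6) and then enriched, with antibody OX-42, for cells that carry the myeloid integrin CD11b/c. The study title calls the cells splenic macrophages and the labels call them splenocytes. The sources used here give neither the composition nor the dose of the liposomes, and do not say whether each array came from its own animal. The p-values thus reflect the spread among these 4 samples alone, and that spread may be technical. Arrays are named saline 1, saline 2, liposome 1 and liposome 2 after the number in their titles. There it follows the letters exp, which may stand for experiment, but the labels do not explain it.

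Cxcl1, Cxcl2 and Cxcl3 act mainly on the receptor Cxcr2 and draw neutrophils. Myeloid cells transcribe them within hours of signals that activate the transcription factor NF-kB. Cxcl9, Cxcl10 and Cxcl11 are induced by interferons, bind Cxcr3 and draw activated T cells and natural killer (NK) cells. Cxcl12, the ligand of Cxcr4 and Ackr3, and Cxcl13, the ligand of Cxcr5, are made mostly by stromal cells and organise lymphoid tissue, and Cxcl16, the ligand of Cxcr6, is made as a transmembrane protein and shed by Adam10 and Adam17.

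The upstream sequences of the neutrophil-attracting and interferon-induced members are shown because Cxcl1 and Cxcl2, and likewise Cxcl10 and Cxcl11, varied together across the arrays, and Cxcl9 is set beside the latter pair. Each is the 250 bases before the gene's start, written on the gene's own strand, from RefSeq on the rat build GRCr8, which is not the build of the array files. Capitals mark matches to 3 motifs searched on both strands: the interferon-stimulated response element (TTTC, any 2 bases, TTTC), the gamma-activated site TTCNNNGAA and the NF-kB consensus. The NF-kB consensus was put in its present form after the sequences had been seen.
Cxcl1, chr14:17479322-17479571, minus strand: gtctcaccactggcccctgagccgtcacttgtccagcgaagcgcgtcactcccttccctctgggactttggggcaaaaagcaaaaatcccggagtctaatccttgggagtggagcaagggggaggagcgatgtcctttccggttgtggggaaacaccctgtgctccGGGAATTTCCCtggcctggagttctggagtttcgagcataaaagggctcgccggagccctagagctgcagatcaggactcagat
Cxcl2, chr14:17467256-17467505, minus strand: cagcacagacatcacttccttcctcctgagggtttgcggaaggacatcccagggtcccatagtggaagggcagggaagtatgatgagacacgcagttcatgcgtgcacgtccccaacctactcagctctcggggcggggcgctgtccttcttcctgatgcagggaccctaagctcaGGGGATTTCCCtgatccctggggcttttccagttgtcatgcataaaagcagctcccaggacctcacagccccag
Cxcl9, chr14:16006916-16007165, plus strand: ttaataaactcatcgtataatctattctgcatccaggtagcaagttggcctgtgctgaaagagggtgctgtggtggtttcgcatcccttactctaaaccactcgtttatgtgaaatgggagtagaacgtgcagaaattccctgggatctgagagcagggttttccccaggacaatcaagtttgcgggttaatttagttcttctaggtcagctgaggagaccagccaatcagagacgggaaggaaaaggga
Cxcl10, chr14:15988816-15989065, plus strand: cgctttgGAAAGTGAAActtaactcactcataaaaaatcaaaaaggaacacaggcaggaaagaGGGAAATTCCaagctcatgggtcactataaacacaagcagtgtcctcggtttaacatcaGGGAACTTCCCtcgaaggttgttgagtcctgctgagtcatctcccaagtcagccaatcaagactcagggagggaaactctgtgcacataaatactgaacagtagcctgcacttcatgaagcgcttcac
Cxcl11, chr14:15973478-15973727, plus strand: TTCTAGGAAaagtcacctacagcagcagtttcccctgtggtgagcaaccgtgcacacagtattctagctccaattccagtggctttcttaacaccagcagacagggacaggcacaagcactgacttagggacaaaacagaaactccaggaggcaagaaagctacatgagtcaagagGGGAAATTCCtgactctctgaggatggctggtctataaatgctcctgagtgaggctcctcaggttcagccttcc

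The NF-kB consensus was matched in 4 of the 8 members with a promoter sequence, and in 6.33% of all 33469 promoters of the same length. Since its form was set after the members' sequences had been seen, these counts are no test of a difference. In Cxcl1 the match began 84 bases before the start and in Cxcl2 74 bases before it. In both genes a further match lay 1 base on and overlapped the first. Cxcl10 held NF-kB matches from 187 and 128 bases before the start, the latter overlapped by another from 127, and a match to the interferon-stimulated response element on the opposite strand from 243 bases. That element was matched in 3.41% of all promoters. Cxcl11 held an NF-kB match from 74 bases and a gamma-activated site from 250 bases before the start, the latter a motif found in 7.67% of all promoters. These letters were not found in the windows of Cxcl9, Cxcl12, Cxcl13 or Cxcl16. A match is a description of letters and does not show that a factor binds there.

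The probes of Cxcl9 and Cxcl11, each the only probe of its gene, show what the array measured for interferon-induced members whose 4 arrays ranked in different orders. Probe positions come from the array files and refer to build rn4 of the rat genome (RGSCv3.4). Whether a probe lies in a coding exon or a UTR was not analysed here.
Cxcl9 probe, chr14:17288831-17288890, plus strand: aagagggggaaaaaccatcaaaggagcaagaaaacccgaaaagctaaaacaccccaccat
Cxcl11 probe, chr14:17252192-17252251, plus strand: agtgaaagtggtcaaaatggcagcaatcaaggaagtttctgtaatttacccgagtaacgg

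The 3 interferon-induced genes lay close together on that assembly. The Cxcl10 probe, at chr14:17267994-17268053, started 15802 bases from the Cxcl11 probe and 20837 bases from the Cxcl9 probe. The Cxcl1 probe, at chr14:18690468-18690527, and the Cxcl2 probe, at chr14:18677165-18677224, started 13303 bases apart, both on the minus strand. Probes of different members shared a run of at most 9 bases, so none was close in sequence to another member's probe.

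Between 61.3% and 66.3% of spots were well above background on each array, none was saturated, and the median intensity ran from 171 to 188. Of the 15 macrophage markers listed, 13 were measured, Cd68, Csf1r and Itgam among them, while Marco and Vsig4, markers of tissue-resident macrophages, were not well above background on any array. The fraction also held RNA of other cells: 14 of 16 neutrophil markers, 10 of 12 NK cell markers, 10 of 11 T cell markers, 10 of 10 B cell markers and 8 of 9 MHC class II genes were measured, the last despite the depletion. On the liposome arrays 1 macrophage marker rose and 5 fell, and 2 MHC class II genes, 4 of 6 erythroid markers and 1 of 5 endothelial markers fell. The marker that rose, Mertk, entered the test only through the liposome arrays, where it was high, so its direction is no finding. The shares called in these lists were 46.2% (with Mertk counted), 25%, 66.7% and 20% in that order, against 8.89% of all genes. These calls were lost in part without a saline array (1 to 2 macrophage markers lower, 0 MHC class II genes, 2 erythroid markers and 0 to 1 endothelial marker) and altogether without either liposome array. None of the NK, T or B cell markers was called by limma (0, 0 and 8 of them at an unadjusted p under 0.05). In such mixed samples, fewer cells of a type and less RNA per cell cannot be told apart.

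No CXC chemokine among the 7 tested passed the threshold for a difference between liposome and saline arrays (limma, Benjamini-Hochberg adjusted p under 0.05), against 8.89% of all 12858 genes (4.83% higher and 4.06% lower on the liposome arrays). At an unadjusted p under 0.05 there were 2 of the 7, Cxcl10 and Cxcl11, both lower on the liposome arrays, against 32.5% of all genes. The median log2 fold change was -0.14 for the neutrophil-attracting members, -1.28 for the interferon-induced members and -0.32 over all 7, beside -0.04 over all genes. Leaving out 1 array moved the neutrophil-attracting median to between -0.60 and 0.31 (0.23 without saline 2, 0.31 without liposome 1) and the interferon-induced median to between -1.75 (without saline 2) and -0.74 (without saline 1). Throughout, log2 levels are relative to the array's 75th percentile, a log2 fold change is the liposome mean minus the saline mean, given with limma's standard error (SE), and n = 2 arrays per group. Levels of different genes come from different probes and are not compared.

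**Figure D1:**
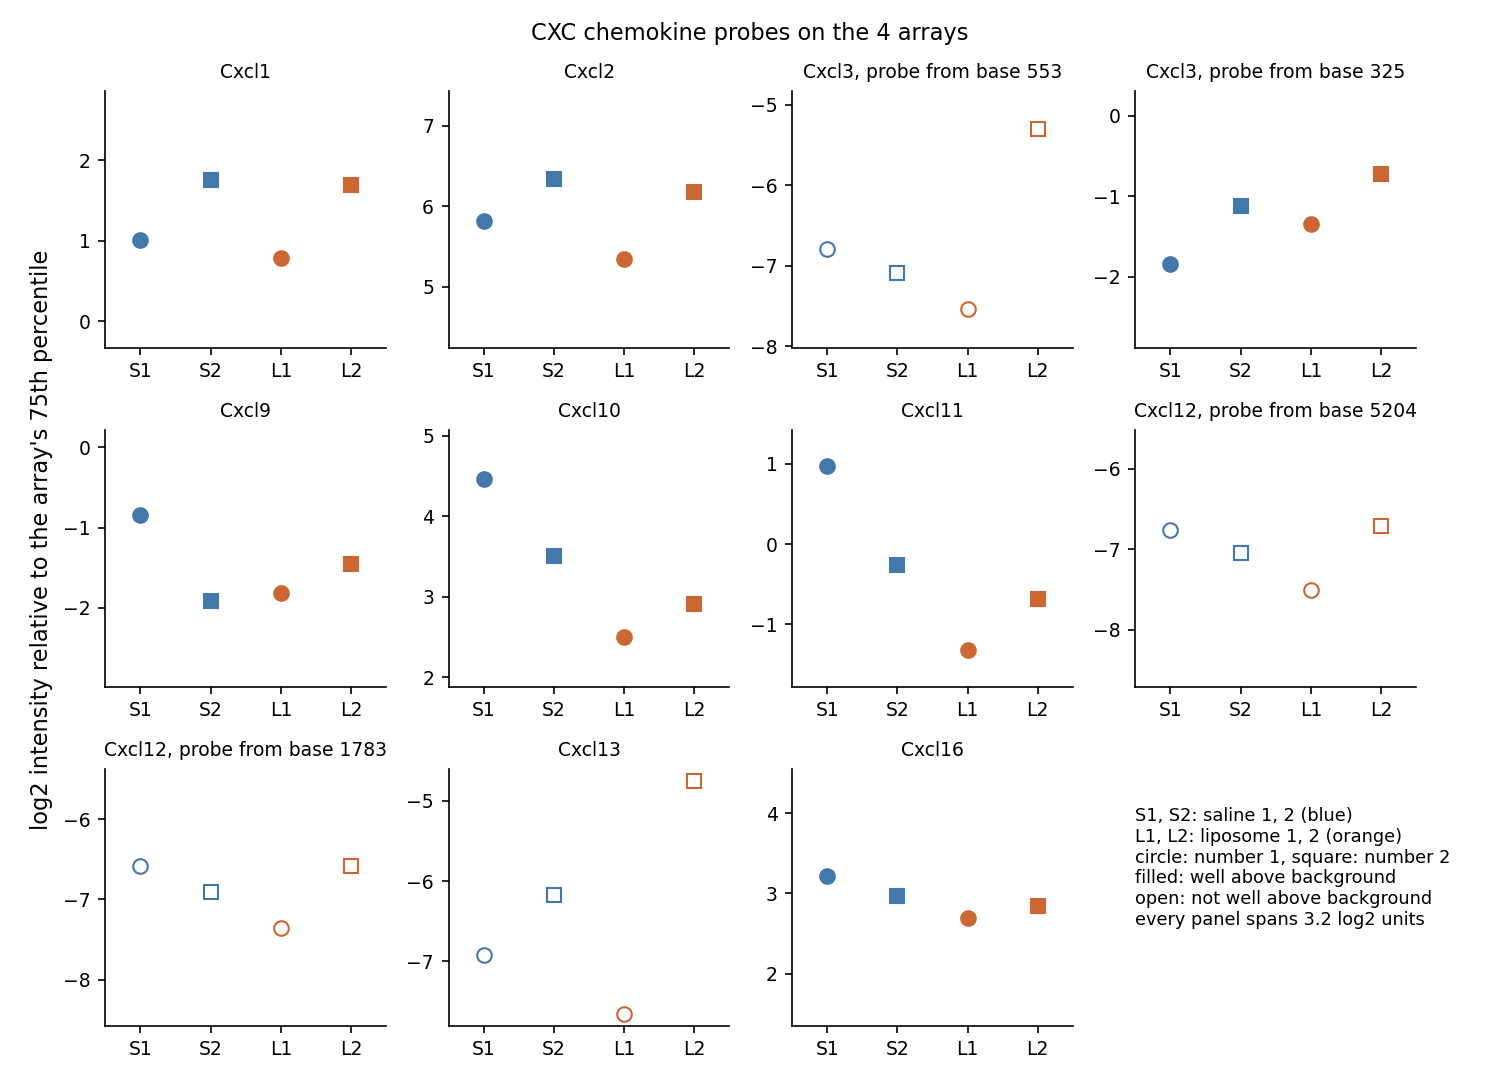
Log2 intensity relative to the array's 75th percentile (vertical axis) of all 11 CXC chemokine probes on the 4 arrays (horizontal axis: S1 and S2, saline 1 and 2; L1 and L2, liposome 1 and 2), with open symbols where the probe was not well above background. Cxcl1, Cxcl2 and the brighter Cxcl3 probe are higher on S2 than on S1 and higher on L2 than on L1, while Cxcl10 and Cxcl11 are highest on S1 and lowest on L1.

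**Figure D2:**
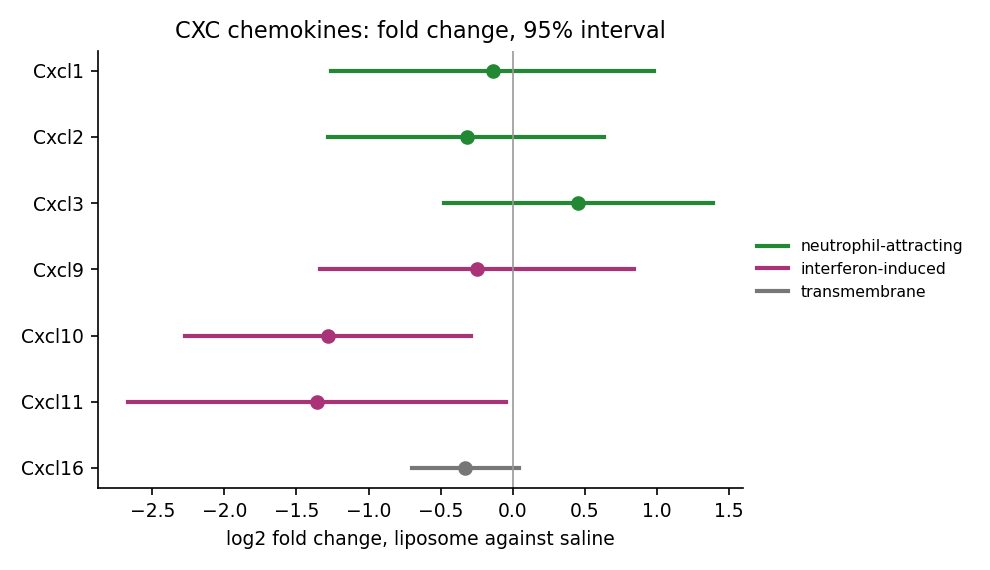
Log2 fold change of liposome against saline (horizontal axis) for the 7 CXC chemokines tested, with points at the limma estimate and bars for its 95% interval, 2 arrays per group. The intervals of Cxcl10 and Cxcl11 lie below 0 before adjustment for the number of genes tested, and the other 5 include 0.

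Among the neutrophil-attracting members, Cxcl1 had intensities of 1930 and 3350 on saline 1 and 2 and of 1880 and 3400 on liposome 1 and 2. Its groups overlapped, with both arrays numbered 2 above both arrays numbered 1. The log2 fold change was -0.14 ± 0.41 (SE; 95% interval -1.26 to 0.98; adjusted p = 0.834, limma). Cxcl1 was printed in 10 spots on each array, of which 9 were used on liposome 1. The spots of one array had a log2 SD of 0.03 to 0.05, which covers printing noise alone and not the variation between samples or labellings. The sign of its fold change turned when one array was left out, to 0.23 without saline 2 and to 0.31 without liposome 1.

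Cxcl2, a close relative that acts on the same receptor, had intensities of 54400 and 80700 on the saline arrays and of 44100 and 76400 on the liposome arrays. Again the groups overlapped and the arrays numbered 2 were the brighter. The log2 fold change was -0.32 ± 0.35 (SE; 95% interval -1.28 to 0.63; adjusted p = 0.556, limma), and it was 0.10 without liposome 1. Cxcl1 and Cxcl2 followed each other across the arrays, with a root mean square difference of 0.12 log2 units once each gene's mean over the 4 arrays was removed.

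Cxcl3 had 2 probes that did not measure alike. The probe from base 325 of an Ensembl transcript, at chr14:18786265-18786324 on the minus strand, gave intensities of 267 and 458 on the saline arrays and of 429 and 640 on the liposome arrays. Its groups overlapped, and its log2 fold change was 0.45 ± 0.34 (SE; 95% interval -0.48 to 1.39; adjusted p = 0.41, limma). The probe from base 553 of the RefSeq transcript, at chr14:18767637-18767696, was not well above background on any array, with intensities of 5.87 to 26.7. The probes start 18628 bases apart, farther than the Cxcl1 and Cxcl2 probes are from each other, and neutrophil-attracting CXC genes occur as near copies of one another. The Cxcl3 value is therefore uncertain as to the gene it measures.

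The neutrophil-attracting members differed between arrays of the same group more than between groups. For Cxcl1, Cxcl2 and Cxcl3 the saline arrays differed by 0.75, 0.52 and 0.73 log2 units and the liposome arrays by 0.91, 0.84 and 0.63, each time with the array numbered 2 higher. All 3 were at least 0.5 units higher on number 2 in both groups, against 2.17% of all genes. That minimum was chosen after the values had been seen. In the NF-kB pathway list, Tnf and Nfkbiz met it among 18 measured genes; they are named here because they met it. Tnf, an inflammatory cytokine, was 0.82 and 1.61 units higher on number 2 in the saline and liposome pairs. Markers of other cells moved with these members: 8 of 10 NK cell markers and 9 of 10 T cell markers met the same minimum, against 0 of 14 neutrophil markers and 0 of 13 macrophage markers. The summed level of NK cell markers was 67.5 and 134 on the saline arrays and 49.9 and 75.7 on the liposome arrays, and that of T cell markers 15.8 and 38.1, and 17.1 and 31.9. Their part in the levels of Cxcl1, Cxcl2 and Cxcl3 was not tested.

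**Figure D3:**
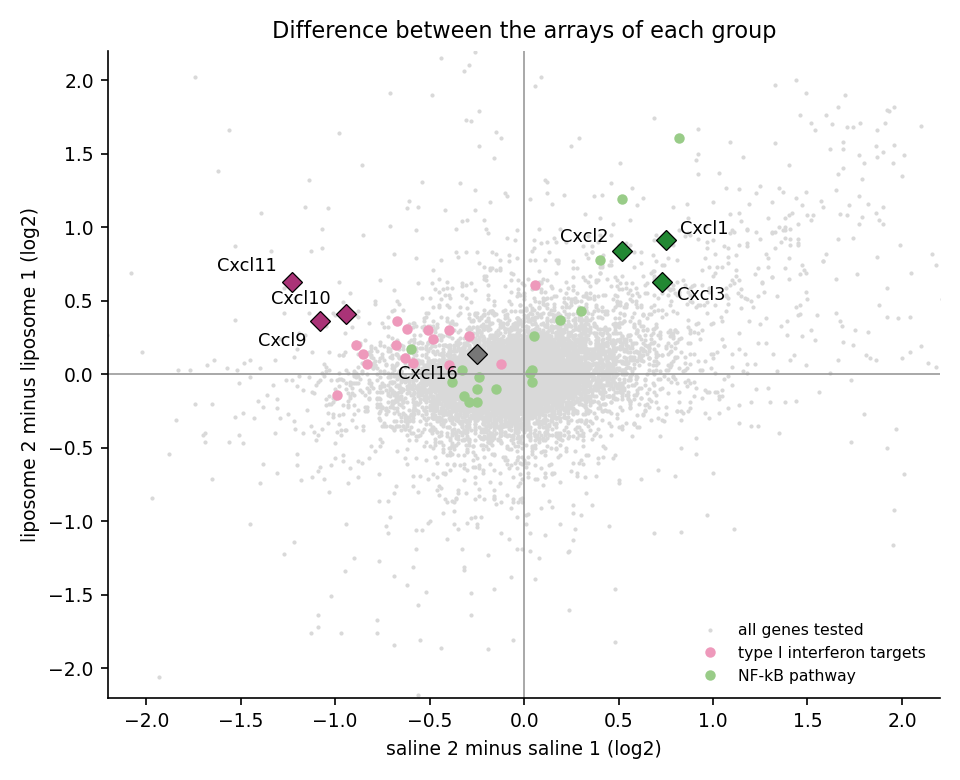
Difference in log2 intensity between the saline arrays (horizontal axis, saline 2 minus saline 1) and between the liposome arrays (vertical axis, liposome 2 minus liposome 1) for all genes tested (grey; 62 genes lie outside the plotted range), type I interferon targets (pink), NF-kB pathway genes (light green) and the 7 CXC chemokines (labelled diamonds). Cxcl1, Cxcl2 and Cxcl3 lie at the upper right, higher on number 2 in both groups, and Cxcl9, Cxcl10 and Cxcl11 at the upper left, higher on saline 1 than saline 2 but lower on liposome 1 than liposome 2.

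The NF-kB pathway drives the neutrophil-attracting members in activated myeloid cells. Of 24 genes listed, 18 were measured, 1 rose and 1 fell, which is 11.1% called against 8.89% of all genes, and the median log2 fold change was -0.30. Il1a, a cytokine released by damaged or activated cells, rose by 2.84 ± 0.23 log2 units (SE; adjusted p = 0.0151, limma). Nfkbid, an atypical nuclear member of the IkB family, fell by 0.73 ± 0.09 (SE; adjusted p = 0.0302). Genes whose products control the decay of chemokine mRNA, such as Zfp36 and Zc3h12a, were measured in 7 of 7 cases and none was called by limma, with none at an unadjusted p under 0.05. Their median was -0.18, and -0.32 to -0.03 when 1 array was left out.

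Of the interferon-induced members, Cxcl10 had intensities of 21100 and 11300 on saline 1 and 2 and of 6170 and 7900 on liposome 1 and 2. Both liposome arrays lay below both saline arrays. The log2 fold change was -1.28 ± 0.36 (SE; 95% interval -2.27 to -0.29; unadjusted p = 0.0222, adjusted p = 0.1, limma), or 2.43-fold lower. The saline arrays differed from each other by 0.94 log2 units in size, so a large part of the difference between groups rested on saline 1: without that array the log2 fold change was -0.81 (adjusted p = 0.129, limma).

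Cxcl11, which binds Cxcr3 as well as Ackr3, had intensities of 1890 and 830 on the saline arrays and of 437 and 653 on the liposome arrays. Its groups did not overlap either, with saline 1 highest and liposome 1 lowest. The log2 fold change was -1.36 ± 0.48 (SE; 95% interval -2.67 to -0.05; unadjusted p = 0.0448, adjusted p = 0.144, limma), or 2.57-fold lower. Without saline 1 it was -0.74 (adjusted p = 0.224, limma), and without saline 2 it was -1.97. Cxcl10 and Cxcl11 followed each other across the arrays, with a root mean square difference of 0.13 log2 units after centring.

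Cxcl9, the member most closely tied to interferon gamma, had intensities of 539 and 262 on the saline arrays and of 312 and 386 on the liposome arrays. Its groups overlapped, with saline 1 highest and saline 2 lowest. The log2 fold change was -0.25 ± 0.40 (SE; 95% interval -1.34 to 0.84; adjusted p = 0.697, limma), and it turned to 0.29 without saline 1. After centring, Cxcl9 differed from Cxcl10 by 0.52 and from Cxcl11 by 0.57 log2 units, although it too was highest on saline 1. Non-overlapping groups with the liposome arrays lower were seen for Cxcl10, Cxcl11 and Cxcl16, 3 of the 7 members, against 35.1% of all genes.

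Other genes that interferons induce were grouped in lists of type I interferon targets and interferon gamma targets. Of 16 type I interferon targets, all measured, 2 fell and none rose, which is 12.5% called against 8.89% of all genes. Their median log2 fold change was -0.57. The genes that passed were Isg15, a ubiquitin-like modifier, at -1.33 ± 0.23 (SE; adjusted p = 0.0459, limma), and Ifit3, a component of antiviral RNA-binding complexes, at -1.24 ± 0.19 (SE; adjusted p = 0.0412). Neither was called when any one of the 4 arrays was left out. Without saline 1 the list's median was -0.26 and none of its genes was called; without saline 2 it was -0.93, and the 2 genes called were Cmpk2 and Rsad2. Saline 1 was the highest array for 15 of the 16, against 31.4% of all genes, and for 13 saline 1 was highest and liposome 1 lowest, an order found in 10.4% of all genes and looked for after the values had been seen.

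Of 16 interferon gamma targets, 14 were measured and 3 fell, which is 21.4% called against 8.89% of all genes. Their median was -0.35. Irf1, a transcription factor, fell by 0.91 ± 0.12 log2 units (SE; adjusted p = 0.0308, limma). Socs1, a feedback inhibitor of cytokine signalling, fell by 0.85 ± 0.12 (SE; adjusted p = 0.0337), and Gbp5, a guanylate-binding protein, by 0.82 ± 0.14 (SE; adjusted p = 0.0448). None of the 3 was called when any one of the 4 arrays was left out. The median was -0.22 without saline 1 and -0.59 without saline 2. Saline 1 was the highest array for 11 of the 14, or 78.6%, against 31.4% of all genes.

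The genes of interferon supply and signalling were measured in 11 of 14 cases, and none was called by limma (3 at an unadjusted p under 0.05), with a median of -0.31. That median was -0.06 without saline 1, -0.10 without saline 2, 0 without liposome 1 and -0.27 without liposome 2. Ifngr1, a chain of the interferon gamma receptor, was called higher without saline 1. Il12b, a subunit of interleukin 12, was called lower without saline 1 and without saline 2. Both are named for those calls. Il12b was not well above background on either liposome array. It entered the test only through the saline arrays, where it was high, so its direction is no finding. Ifng, the interferon gamma gene itself, lay at -1.70 and 0.09 on saline 1 and 2 and at -2.03 and -0.59 on liposome 1 and 2, higher on number 2 in both groups. Ifng was thus lower on saline 1 than on saline 2, and Cxcl9, Cxcl10 and Cxcl11 were higher on saline 1. The part of Ifng in the levels of these 3 genes was not tested. MHC class II genes were highest on saline 1 in 8 of 8 measured cases, against 31.4% of all genes. So were 8 of 10 B cell markers and 4 of 6 dendritic cell markers, but 1 of 10 NK cell markers and 0 of 10 T cell markers. The summed level of MHC class II genes was 445 and 405 on the saline arrays and 315 on each liposome array. Dendritic cell markers fell in 4 of 6 measured cases, which is 66.7% called against 8.89% of all genes. Their summed level was 11 and 9.83 on the saline arrays and 5.05 and 4.43 on the liposome arrays. Of the dendritic cell markers 3 were called without saline 1, 1 without saline 2 and 0 without either liposome array. The part of these lists in the interferon-induced chemokines was not tested.

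**Figure D4:**
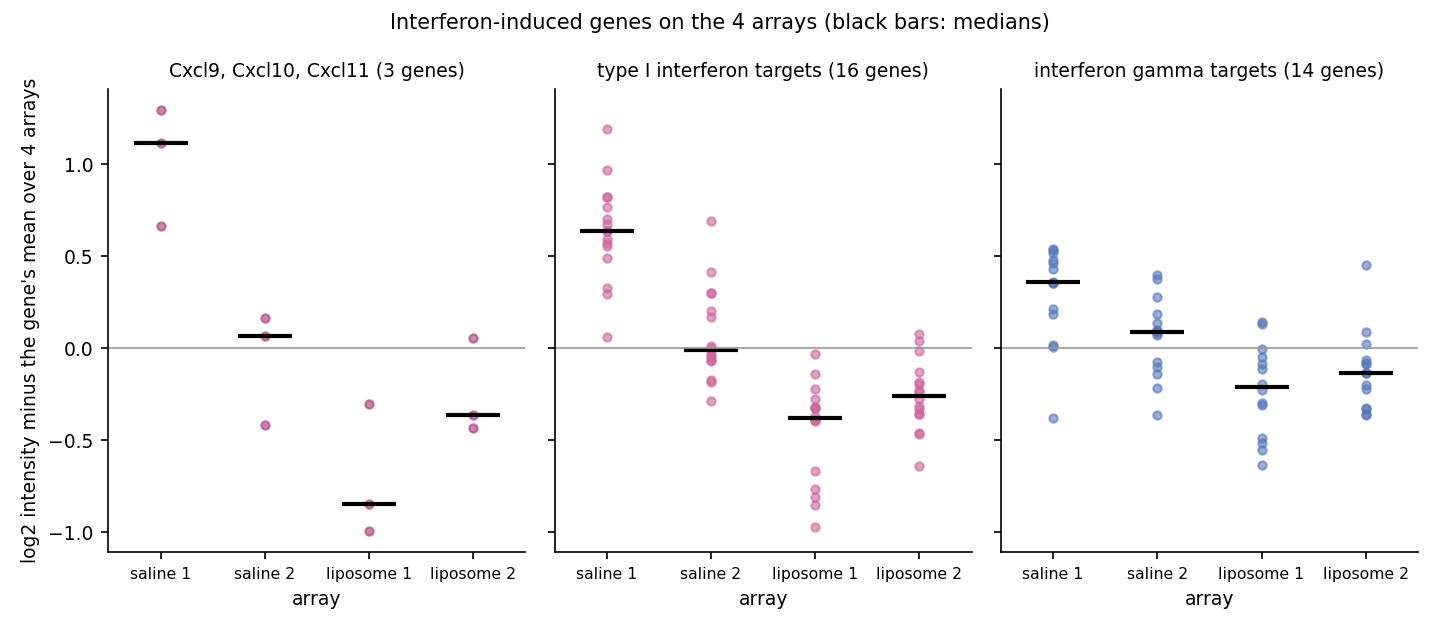
Log2 intensity minus the gene's own mean over the 4 arrays (vertical axis) on each array (horizontal axis) for Cxcl9, Cxcl10 and Cxcl11, for 16 type I interferon targets and for 14 interferon gamma targets, with 1 point per gene and black bars at the median. Saline 1 is the highest array in each panel, with medians of 1.11, 0.64 and 0.36, beside 0.06, -0.01 and 0.09 on saline 2.

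The transmembrane member Cxcl16, a scavenger receptor of macrophages as well as a chemokine, had intensities of 8990 and 7780 on the saline arrays and of 7060 and 7510 on the liposome arrays. Its probe lies at chr10:57296159-57296218 on the minus strand. Both liposome arrays lay below both saline arrays, by a narrow margin. The log2 fold change was -0.33 ± 0.14 (SE; 95% interval -0.70 to 0.04; adjusted p = 0.182, limma), or 1.26-fold lower, and without saline 1 it was -0.20. Adam10 and Adam17, the sheddases that release Cxcl16 from the membrane, had log2 fold changes of 0.44 ± 0.09 and 0.33 ± 0.13 (SE; adjusted p = 0.0637 and 0.18, limma); they are named for that role.

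The homeostatic members gave no measurable signal in this fraction. Both Cxcl12 probes and the Cxcl13 probe were not well above background on any of the 4 arrays. The Cxcl12 probe from base 5204, at chr4:153516205-153516264, had intensities of 5.98 to 10.1, and the probe from base 1783, at chr4:153510285-153510344, had 6.66 to 11. The Cxcl13 probe, at chr14:15127379-15127438, had intensities of 7.97 and 13.7 on the saline arrays and of 5.43 and 39 on the liposome arrays. Values at this level have no order, and no fold change is given. Few markers of the stromal cells that make these chemokines were measured, 4 of 13, with a summed level of 0.639 to 0.703 over the 4 arrays, and Pdgfra, Pdgfrb, Dcn, Lum, Ccl19, Ccl21 and Madcam1 were not well above background on any. Of 9 lymphotoxin pathway genes, the pathway that drives Cxcl13 in lymphoid stroma, 6 were measured and none was called by limma (3 at an unadjusted p under 0.05), with a median of -0.40.

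Of the 8 receptor genes listed, 7 were measured, 1 fell and none rose, or 14.3% called against 8.89% of all genes. Cxcr2, the main receptor of the neutrophil-attracting members, lay at 1.87 and 1.70 on the saline arrays and at 1.03 and 1.12 on the liposome arrays. Its groups did not overlap, with the liposome arrays lower, as in 35.1% of all genes. Cxcr2 fell by 0.71 ± 0.11 log2 units (SE; adjusted p = 0.0423, limma), and it was not called when any one of the arrays was left out (adjusted p = 0.0614 to 0.24). Neutrophil markers fell with it: 8 of 14 measured markers fell and none rose, which is 57.1% called against 8.89% of all genes. Their median was -0.79, with a summed level of 341 and 361 on the saline arrays and 197 and 206 on the liposome arrays. Without saline 1 or without saline 2 only Cd177 and Ngp, 2 of the 14, were called, and without either liposome array 0. The part of neutrophil markers in the fall of Cxcr2 was not tested.

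Cxcr1, another receptor of the list, did not stand well above background in the saline samples, at -4.72 and -6.46. It was measured on both liposome arrays, at -4.16 and -2.13. It was 3.22-fold higher on the liposome arrays, taken against the lowest level that counted as well above background on each array or the probe's own value. It did not pass the test (adjusted p = 0.159, limma). On saline 1 that lowest level was -4.73, and Cxcr1 lay above it without counting as well above background. The fold is therefore no firm lower limit. Cxcr1 entered the test only through the liposome arrays, where it was high, so the direction is no finding. The fold rested on liposome 2: it was 1.6-fold from liposome 1 alone and 6.49-fold from liposome 2 alone. Ackr3, the scavenging receptor of Cxcl11 and Cxcl12, lay at 0.39 and 0.57 on the saline arrays and at -0.33 and -1.06 on the liposome arrays. Its log2 fold change of -1.17 ± 0.27 did not pass either (SE; adjusted p = 0.0722, limma). The groups did not overlap, with the liposome arrays lower, as in 35.1% of all genes.

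Cxcr3, the receptor of the interferon-induced members, lay at -0.89 and 0.21 on the saline arrays and at -1.08 and -0.44 on the liposome arrays, which overlapped. Its log2 fold change was -0.42 ± 0.45 (SE; adjusted p = 0.55, limma), and it was 0.13 without saline 2. Like the NK and T cell markers, it was higher on number 2 in both groups. Cxcr4, the signalling receptor of Cxcl12, had a log2 fold change of 0.23 ± 0.12, Cxcr5 one of -0.22 ± 0.15 and Cxcr6 one of 0.12 ± 0.59 (SE; adjusted p = 0.252, 0.367 and 0.90, limma). Cxcr6 was well above background on 1 of the 2 saline arrays, and its sign turned when saline 1 or liposome 2 was left out.

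**Figure D5:**
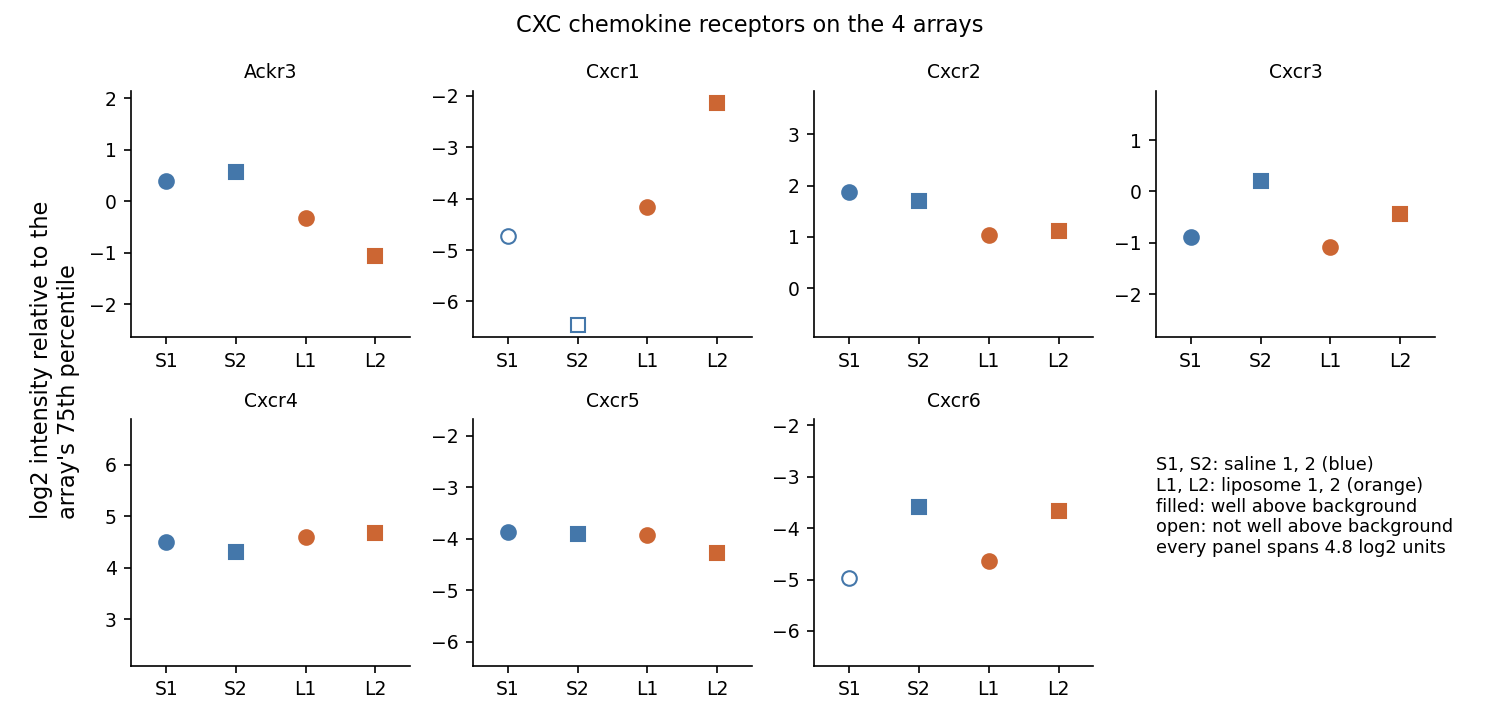
Log2 intensity relative to the array's 75th percentile (vertical axis) of the 7 measured CXC chemokine receptors on each array (horizontal axis: S1 and S2, saline 1 and 2; L1 and L2, liposome 1 and 2), with open symbols where the probe was not well above background. Cxcr2 lies at 1.87 and 1.70 on the saline arrays and at 1.03 and 1.12 on the liposome arrays, and Cxcr1 is open on both saline arrays.

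Of 6 other CXC chemokines listed, 2 were measured. Pf4, a chemokine of platelets and of some macrophages, lay at -2.03 and -1.78 on the saline arrays and at 0.27 and 0.13 on the liposome arrays. It rose by 2.11 ± 0.13 log2 units, or 4.3-fold (SE; adjusted p = 0.00955, limma). Cxcl17, a mucosal chemokine-like protein, had a log2 fold change of -0.58 ± 0.17 (SE; adjusted p = 0.108). Cxcl6, which the files name Cxcl5, Ppbp and Cxcl14 were not well above background on any array.

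Enzymes that cut CXC chemokines were measured in 8 of 9 cases, of which 2 rose and 2 fell, or 50% called against 8.89% of all genes. The rises and the share count Mmp12, whose direction is no finding. Mmp12, the macrophage elastase, which cleaves neutrophil-attracting CXC chemokines, lay at -4.84 and -4.11 on the saline arrays and at 1.76 and 1.34 on the liposome arrays. It was 62.6-fold higher on the liposome arrays (adjusted p = 0.00769, limma) by the rule used for Cxcr1, since only 1 of the 2 saline arrays was well above background. That fold too is no firm lower limit. Mmp12 entered the test only through its liposome arrays, where it was high, so the direction is no finding. The p rests partly on a value not measured. Mmp14, a membrane-bound metalloproteinase that can cut Cxcl12, rose by 5.62 ± 0.14 (SE; adjusted p = 0.00752). Dpp4, which trims Cxcl9, Cxcl10, Cxcl11 and Cxcl12 at the amino end, fell by 0.73 ± 0.12 (SE; adjusted p = 0.0427), and Mmp8, the neutrophil collagenase, fell by 0.61 ± 0.10 (SE; adjusted p = 0.0433). Dpp4, Mmp8 and Nfkbid were not called when any one of the 4 arrays was left out, and Pf4, Mmp12, Mmp14 and Il1a were not called without liposome 1 or without liposome 2, where no gene was.

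The genes most like a member over the 4 arrays were sought for the member with the largest fold change of each role. After centring, Cxcl11 was nearest to Kcna2, BQ210707 (a name kept from the files) and Cxcl10, with root mean square differences of 0.122, 0.126 and 0.134 log2 units. Cxcl3 was nearest to Cdc14b, Hells and Slc41a3, at 0.0412, 0.0697 and 0.0958. Cxcl16 was nearest to Kif3c, ENSRNOT00000041436 and Malt1, at 0.00523, 0.00544 and 0.0137. With 4 arrays and 12858 genes these distances are descriptions only. Among the members themselves the pair Cxcl1 and Cxcl2 was the closest and the pair Cxcl3 and Cxcl11 the farthest, at 1.14.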

How the data were processed

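Total RNA (0.2 ug) was labelled with Cy3, per the labels' protocols. The deposited values are processed spot intensities from Agilent Feature Extraction 10.7.3.1, per the submitters' processing notes. Per the file headers, background was removed within each array and no scaling was made between arrays. Mean and local background intensities, also deposited, served 1 alternative. The 4 arrays share 1 slide and 1 scan.

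Control and outlier spots were left out, spots of a probe averaged, and each array's 75th percentile subtracted from log2 intensity. Probes were kept if well above background on each array of 1 group or the other, and the brightest probe stood for its gene. Names came from accessions for 18006 probes and from the files for 8186, and 4175 had none. The 12858 genes tested were fitted on the log2 scale by lmFit and eBayes of limma version 3.58.1 (R version 4.3.3, with data.table version 1.17.8 for reading), tested on simulated data, with Benjamini-Hochberg adjustment over all genes and a threshold of 0.05. No exact permutation test was run, since its smallest p with 2 arrays per group is 0.333. Named genes were the members, all measured receptors and other CXC chemokines, up to 4 called genes of each other list with the largest change, and the 3 genes nearest to 1 member of each role; cell type lists are given by counts. Summed levels add linear intensities over the array's 75th percentile. The members, lists and tests were chosen with earlier results of these data known. Alternatives were other scalings, filters, probe rules, a replicate block and leaving out each array. The number of arrays limits the precision.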

Additional observations from a re-analysis of the deposited data

How the results depend on the processing

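No member was called, higher or lower, under any of the 13 alternatives (limma, adjusted p under 0.05). Cxcl10 and Cxcl11 stayed lower in all of them, at -1.75 to -0.81 (adjusted p = 0.0571 to 0.356) and at -1.97 to -0.74 (adjusted p = 0.069 to 0.448). Cxcl16 stayed at -0.46 to -0.20 and Cxcl3 at 0.08 to 0.82. Of the members and receptors, 5 changed sign, each only when an array was left out: Cxcl1 ranged from -0.60 to 0.31 (0.23 without saline 2), Cxcl2 from -0.75 to 0.10, Cxcl9 from -0.79 to 0.29, Cxcr3 from -0.97 to 0.13 and Cxcr6 from -0.56 to 0.81 (-0.37 without liposome 2). The cause was not tested. Over all genes, 1143 were called, 0 with no filter on dim probes (smallest adjusted p = 0.143, 3005 at an unadjusted p under 0.05, limma) and 0 to 499 when 1 array was left out, where fewer arrays were fitted; the lone array of a group was then assumed to vary like the other group. Scaling on the median gave 852 higher and 442 lower, against 621 and 522. The title numbers 1 and 2 follow the letters exp and may mark a shared experiment, but are not said to pair the arrays. The main fit did not pair them. With them as a replicate block, 1816 genes were called, no member among them (Cxcl10 adjusted p = 0.0865, Cxcl3 0.0699). Differences between arrays of a group correlated at 0.355 between the groups over genes, which are not independent replicates. The medians of lists without each array were added after seeing the data. The SE of Cxcl1 was 0.41 without and 0.11 with the block, and that of Cxcl2 0.35 and 0.13, so what difference could be detected for them depends on whether the numbers pair the arrays.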
